A study of Mus musculus with 2 samples.

Results

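The genes described here were 10 CC chemokines, Ccl2, Ccl3, Ccl4, Ccl6, Ccl7, Ccl9, Ccl12, Ccl17, Ccl22 and Ccl24, out of 24785 genes listed in either library. They were chosen by name as family members, and all 10 were listed in both tables. The BLM library held living CD45+ cells from lungs of wild-type C57BL/6N mice at day 15 after intratracheal bleomycin, which damages the lung epithelium and is followed by fibrosis. The naive library held the same sort from untreated wild-type mice of that strain, and the sources used here give no sham-treated control for these libraries. Each library was a pool of 3 adult mice with no map from cell to mouse, and there was 1 library per group. A difference between the groups therefore cannot be told apart from a difference between library preparations or runs, no test between groups was possible, and each interval below covers counting error only. After filtering, 4391 BLM cells with 21205886 unique molecular identifiers (UMIs, each marking 1 captured transcript) and 3808 naive cells with 16891716 UMIs were kept, at a median of 2380 and 2700.5 UMIs per cell. Of the cell labels, 22 occurred in both libraries before filtering and 17 among the kept cells. Both libraries were clustered together without chemokine or chemokine receptor genes among the variable genes, and clusters were named from marker genes, so that each name means cells like that class.

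CC chemokines are small secreted proteins that attract leukocytes by binding CC receptors, which are coupled to G proteins. Ccl2, Ccl7 and Ccl12 bind CCR2 and draw monocytes out of the blood. Ccl3, Ccl6 and Ccl9 bind CCR1, which neutrophils and macrophages carry, and Ccl4 is a close relative of Ccl3 that attracts lymphocytes and monocytes. Ccl17 and Ccl22 share the receptor CCR4 of T helper 2 cells and regulatory T cells, and Ccl24 binds CCR3 of eosinophils. On GRCm38 the genes of the first 7 lie on chromosome 11, from Ccl2 (82035571 to 82037453, plus strand), Ccl7 and Ccl12 to the cluster of Ccl9, Ccl6, Ccl3 and Ccl4 (ending at 83664683). Ccl22 (94745590 to 94751699) and Ccl17 (94810453 to 94812036) lie 58.8 kb apart on the plus strand of chromosome 8, and Ccl24 lies on chromosome 5 (135569937 to 135573049, minus strand). All 10 are annotated as protein coding. Of stretches of 50 bases in their annotated transcripts, none was shared with another gene's transcripts except for 59 of 2996 in Ccl9, so reads of the neighbouring family members could be told apart by sequence.

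Levels are given as the summed UMIs of a gene per 1000000 UMIs of the same cells (CPM), and differences as the log2 ratio of the BLM to the naive level with its exact 95% interval in brackets. All 11 named classes with 50 or more cells in each library and the cycling cells nearest to alveolar macrophages were compared. The class of interstitial or recruited macrophages (IM) was led by Retnla, Folr2, Pf4 and C1qa and held 458 BLM and 120 naive cells. The class of alveolar macrophages (AM) was led by Fabp1, Ear1 and Cidec and held 505 and 581 cells. The libraries were more than 2-fold apart in 9 of the 10 genes that led AM and in 7 of those that led IM. The summed level of 8 IM markers (C1qa, C1qb, C1qc, Ms4a7, Apoe, Trem2, Arg1 and Gpnmb) in AM was 2933 CPM in BLM and 548 CPM in naive, with none of the 8 at 0 in either library, and without integration of the libraries no BLM cell fell in the AM class, while IM then held 1013 BLM and 91 naive cells. Values for AM and IM therefore rest on that integration, and the part of these macrophage genes in the AM results was not tested. Ccl24, Ccl17 and Ccl22 stood among the 10 leading genes of IM, conventional type 2 dendritic cells (cDC2) and migratory dendritic cells, although they took no part in the clustering. The cDC2 class was named for Cd209a, Cd209d and Mgl2 among its leading genes, although the markers of plasmacytoid dendritic cells had the higher mean score there (2.88 against 2.50).

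B cells served as the class that should hold few of these transcripts, as a measure of free RNA from other cells. Their levels were 28.4 CPM or less in BLM and 17.6 CPM or less in naive for 9 of the 10 genes, at median depths of 1654 and 1957 UMIs. Ccl6 was the exception, at 185 CPM in BLM and 231 CPM in naive B cells, and at 196 and 196 CPM in T cells. Among the other 10 named classes of that size, Ccl12 lay above the interval of the B cells only in IM, in both libraries. Ccl22 did so only in cDC1 and cDC2, whereas Ccl6 did so in 9 of the 10 classes in BLM and 8 of 10 in naive. The genes thus ranged from ones held by a single class to ones spread over the whole myeloid compartment. T cells stayed near the level of B cells for Ccl3 (6.68 CPM in BLM, 4.42 in naive) and Ccl4 (14.3 and 16.0 CPM), also among T cells with a UMI of Cd8a or Cd8b1 (Ccl4 15.3 and 8.51 CPM).

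**Figure D1:**
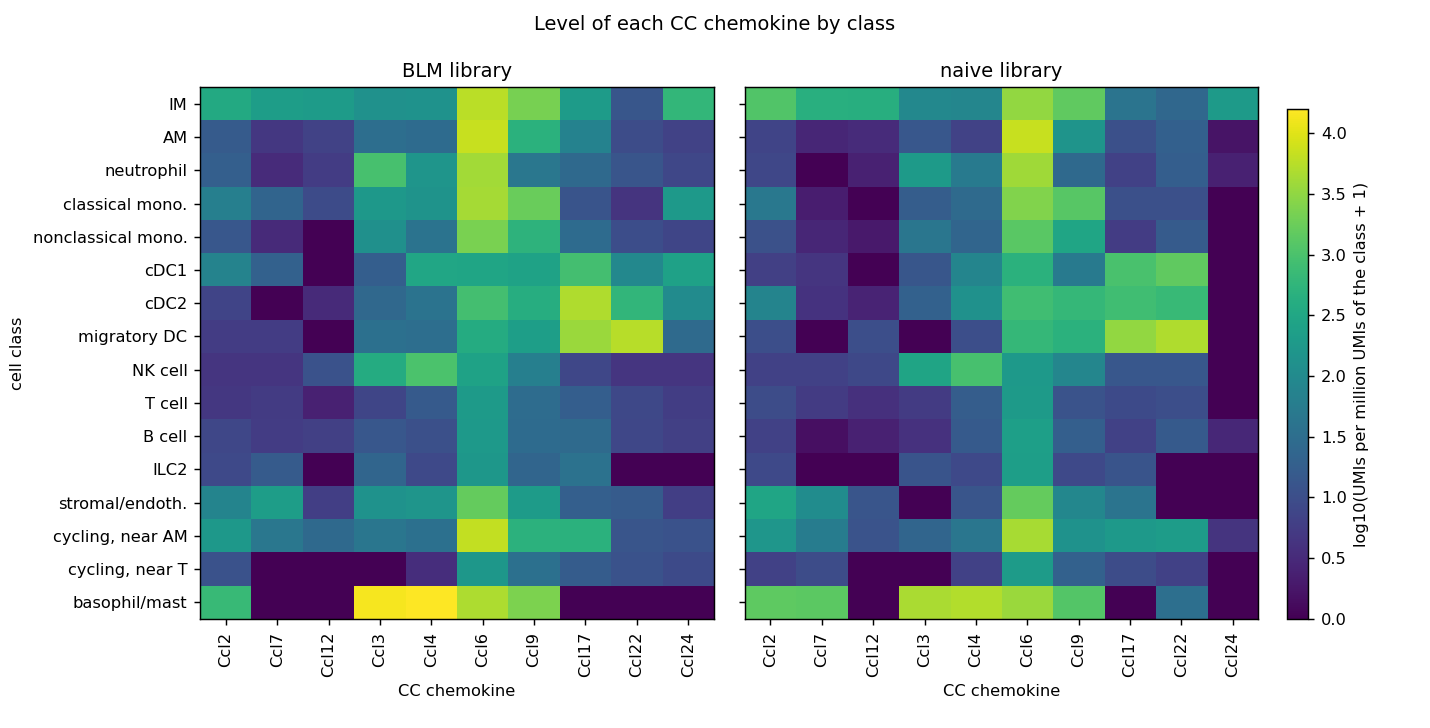
Level of each of the 10 genes (columns) in each of the 16 classes (rows) of the BLM library (left) and the naive library (right), coloured by log10 of CPM plus 1. Ccl6 is bright in the macrophage, monocyte and neutrophil rows of both libraries, whereas Ccl12 stands out mainly in the IM row and Ccl22 mainly in the dendritic cell rows, and the basophil or mast row rests on only 4 BLM and 9 naive cells.

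Over all kept cells, each of the 10 genes stood higher in the BLM library. Ccl24 differed most, with 3125 UMIs in BLM against 159 in naive (147 against 9.41 CPM, log2 ratio 3.97 [3.74, 4.21]). Ccl3 followed at 128 against 41.7 CPM (1.62 [1.5, 1.74]), Ccl17 at 315 against 103 CPM (1.62 [1.54, 1.69]) and Ccl9 at 748 against 248 CPM (1.59 [1.55, 1.64]). Ccl12 stood at 48.0 against 21.5 CPM (1.16 [0.98, 1.33]) and Ccl7 at 56.9 against 28.6 CPM (0.99 [0.84, 1.15]). The smaller differences were those of Ccl4 (91.7 against 65.5 CPM, 0.48), Ccl2 (103 against 76.1 CPM, 0.44), Ccl6 (4487 against 3401 CPM, 0.40) and Ccl22 (142 against 132 CPM, 0.10). Thus 5 of the 10 (Ccl3, Ccl9, Ccl12, Ccl17 and Ccl24) were 2-fold or more higher and 0 were 2-fold or more lower, where 5.15% and 6.75% of the 13553 genes with 20 or more UMIs were. The median log2 ratio was 1.08 over the 10 genes and −0.17 over all 13553. In such sums, more cells of a class and more RNA per cell cannot be told apart. IM held 21.5% of all UMIs in BLM and 4.48% in naive, and levels within classes follow.

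**Figure D2:**
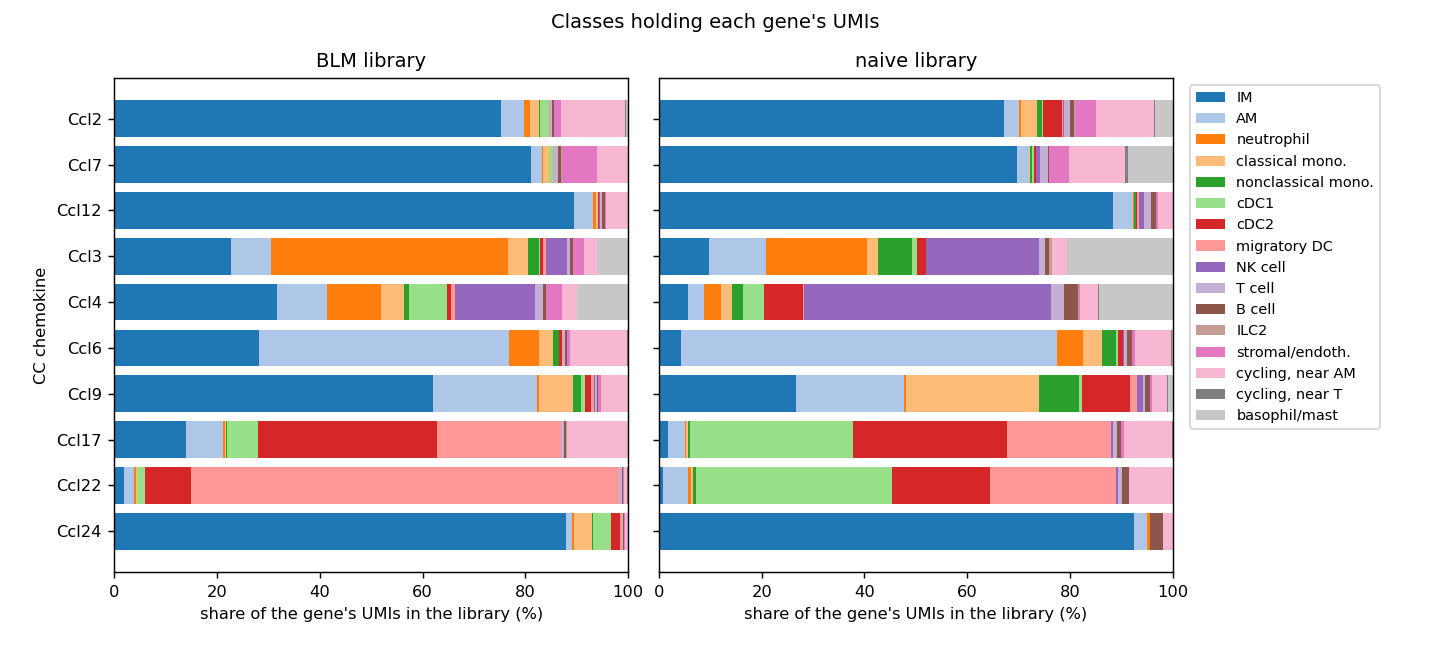
Share of each gene's UMIs (horizontal axis, percent of the library's UMIs of that gene) held by each class, with the BLM library on the left and the naive library on the right. IM holds most Ccl2, Ccl7, Ccl12 and Ccl24 in both libraries, whereas the largest holder of Ccl3, Ccl4, Ccl17 and Ccl22 differs between the libraries.

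The CCR2 ligands came mainly from IM in both libraries. IM held 75.2% of the Ccl2 UMIs in BLM (73.4 to 77.0%) and 67.2% in naive (64.5 to 69.7%), 81.2% and 69.8% of Ccl7, and 89.4% and 88.4% of Ccl12. Within IM, however, all of these genes were lower in BLM, where 10.5% of all genes counted in IM were 2-fold or more lower and 6.58% 2-fold or more higher. Ccl2 stood at 361 CPM in BLM IM (1647 UMIs, 95% interval 343 to 379) and at 1143 CPM in naive IM (864 UMIs, 1068 to 1222), a log2 ratio of −1.66 [−1.78, −1.54]. Ccl7 stood at 215 and 446 CPM (−1.05 [−1.23, −0.87]), and Ccl12 at 199 and 425 CPM (−1.09 [−1.28, −0.90]). Few cells carried much of these sums, which the intervals do not cover. The top 3 IM cells held 19.9% of the Ccl2 UMIs in BLM and 22.9% in naive. For Ccl7 they held 27.0% and 31.8%, and for Ccl12 27.1% and 41.1%. The direction within IM was thus the opposite of that over all cells for each of the 3 genes. It was so with finer clusters (resolution 1) as well, at −1.16, −0.59 and −0.62. Without integration the ratios were −3.28, −2.71 and −2.75, but IM then held 1013 BLM cells and AM 0. BLM AM held these genes at only 15.0, 3.79 and 5.76 CPM. That setting therefore cannot show the direction within IM. The share of IM cells with a Ccl2 UMI was 30.6% in BLM (26.4 to 35.0%) and 41.7% in naive (32.7 to 51.0%), against 1.42% and 1.34% of B cells. BLM IM cells were the deeper ones (median 9166.5 against 5436 UMIs), and after thinning each cell to 1000 UMIs the shares were 13.2% and 29.3%. Thinned shares for Ccl7 were 8.02% and 19.98%, and for Ccl12 9.71% and 14.2%. Of 13 immediate early genes, which stress during cell preparation can also induce, 3 were 2-fold or more lower in BLM IM (Jun, −1.13, Atf3, −1.24, and Hspa1a, −1.38) and 0 were higher, with a median log2 ratio of −0.76 and a summed level of 7385 CPM in BLM and 10883 CPM in naive. Their part in the IM results was not tested.

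Outside IM the CCR2 ligands were sparse. Classical monocytes held Ccl2 at 64.0 CPM in BLM and 47.3 CPM in naive (0.44 [−0.24, 1.11]), an interval that includes 0. AM held 15.0 and 6.31 CPM, neither above the interval of the B cells (6.74 and 5.38 CPM), and 3 cells held 63.6% of the BLM AM UMIs. In cDC2, Ccl2 had 3 UMIs in BLM and 49 in naive, and in cDC1 35 and 3 UMIs, of which 1 BLM cell held 31. The cells named by stromal or endothelial markers (125 BLM and 53 naive) reached 214 and 111 CPM of Ccl7, again from few cells, since 3 cells held 92.9% and 100% of those UMIs. Their Ccl2 stood at 76.4 and 299 CPM, with 40 of the 51 naive UMIs in 1 cell. In these cells 9 AM markers summed to 1960 CPM in BLM and 5411 CPM in naive. Basophil or mast cell markers had the next highest mean score there (3.625 against 4.089). The class also depended on the setting, and at resolution 1 it held 78 BLM and 27 naive cells. Cycling cells nearest to AM had Ccl2 at 170.02 and 158 CPM, with 72.2% and 94.5% in 3 cells.

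Among IM cells, the CCR2 ligands went with Folr2, the folate receptor beta of resident interstitial macrophages. Of the genes outside the 10, Folr2 and Fcna were those whose level over 29 class-by-library sums was most like that of Ccl12 (Pearson r 0.954 and 0.937). IM was therefore split, after the values had been seen, into cells with a Folr2 UMI (114 BLM and 55 naive, median 11360 and 5520 UMIs) and cells without (344 and 65, median 8790 and 5274 UMIs). The cells with a Folr2 UMI held Lyve1 at 339.7 CPM in BLM and 1438 CPM in naive, against 3.44 and 27.9 CPM in the cells without, and Lyve1 marks interstitial macrophages along vessels. The split rests on 1 gene and on depth, and the cells with Folr2 also differed otherwise between the libraries, with Spp1 at 10212 CPM in BLM against 12.3 CPM in naive and Gpnmb at 2029 against 58.4 CPM. With Folr2, Ccl2 stood at 799 CPM in BLM and 2492 CPM in naive, and at 173 and 123 CPM in cells without. Ccl7 stood at 605 and 940.4 CPM with Folr2, and at 47.5 and 72.0 CPM without. For Ccl12 the values were 534 and 974 CPM with Folr2, and 55.7 and 9.29 CPM without. In both libraries the 3 genes were thus several times higher in the cells with Folr2, which held 66.4% of the IM Ccl2 UMIs in BLM and 93.9% in naive. Because Folr2 was chosen in these same data for its likeness to Ccl12, this is a description and no separate support. Between the libraries, the cells with Folr2 kept a lower Ccl2 level in BLM (−1.64 [−1.77, −1.51]), with smaller differences for Ccl7 (−0.64 [−0.83, −0.44]) and Ccl12 (−0.87 [−1.06, −0.67]). In the cells without Folr2, Ccl2 was at 0.49 [0.08, 0.93] and Ccl12 at 2.58 [1.20, 4.47], the latter on only 4 naive UMIs, whereas Ccl7 was at −0.60 [−1.16, 0.0079].

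The 3 genes overlapped in part in the same IM cells. Of 79 BLM IM cells with a Ccl7 UMI, 62 had a Ccl2 UMI, and of 40 such naive cells 34 did. In the other direction, 62 of 140 BLM and 34 of 50 naive cells with Ccl2 had Ccl7. A Ccl12 UMI was found in 62 of the 140 and 20 of the 50 cells with Ccl2, and in 51 of the 79 and 19 of the 40 cells with Ccl7. Among IM cells without a Ccl2 UMI, 5.35% in BLM and 8.57% in naive held Ccl7. The cells with Ccl2 were somewhat deeper (median 10036.5 against 8825.5 UMIs in BLM, and 5964.5 against 4960.5 in naive). Ccl8, a further family member outside the 10 that attracts monocytes and T helper 2 cells, was also higher in the cells with Folr2 than in those without in both libraries, but there it stood higher in BLM, at 2697 CPM in BLM and 172 CPM in naive (3.97 [3.59, 4.38]).

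**Figure D3:**
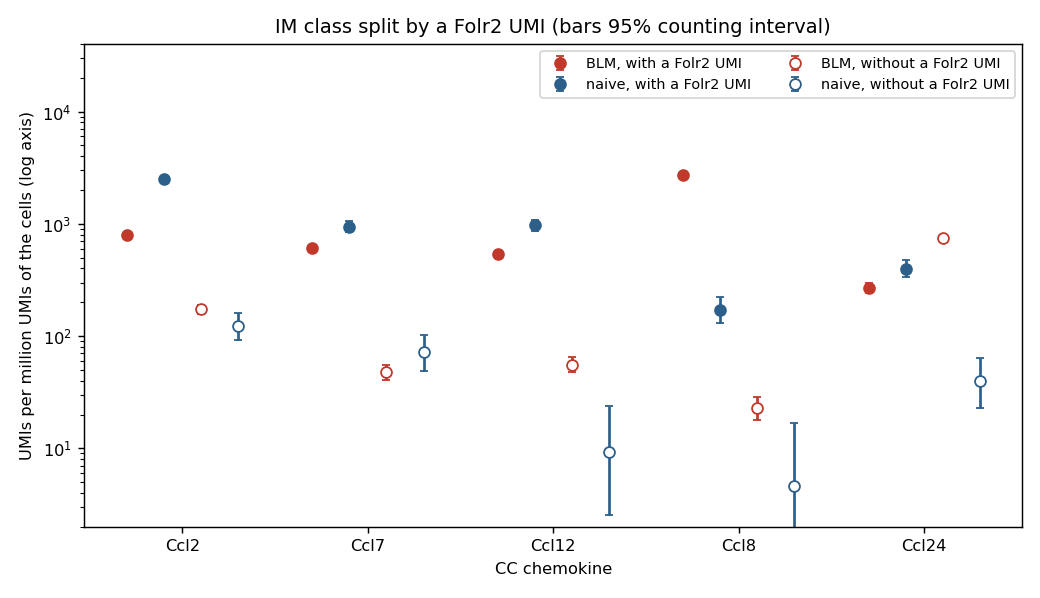
Level in CPM (log axis) of Ccl2, Ccl7, Ccl12, Ccl8 and Ccl24 in IM cells with a Folr2 UMI (filled) and without (open), for BLM (red) and naive (blue), with 95% counting intervals. For Ccl2, Ccl7, Ccl12 and Ccl8 the filled points lie above the open ones in both libraries, whereas for Ccl24 the open BLM point (744 CPM) lies above the filled one (268 CPM).

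Ccl3, a ligand of CCR1 that neutrophils, monocytes and NK cells release, was higher in the neutrophils of BLM, where 3.82% of all genes counted were 2-fold or more higher. Neutrophils held 1251 UMIs in BLM (933 CPM, 882 to 986) and 139 UMIs in naive (193 CPM, 162 to 228), a log2 ratio of 2.27 [2.02, 2.53]. A Ccl3 UMI was found in 31.2% of 998 BLM neutrophils (28.3 to 34.1%) and in 11.3% of 453 naive neutrophils (8.50 to 14.5%), against 2.67% and 0.730% of B cells. The BLM neutrophils were the shallower ones (median 1329 against 1580 UMIs), and thinned shares were 28.6% and 9.32%. The signal was spread over many cells, because the 53 neutrophils with most Ccl3 were needed to reach 50% of its BLM UMIs there and the top 3 cells held 6.88%. Neutrophils were the source of 46.1% of all Ccl3 UMIs in BLM and 19.7% in naive, where NK cells held 22.1%. Of the immediate early genes, 2 of the 11 counted in neutrophils were 2-fold or more lower in BLM (Fos, −1.75, and Egr1, −2.44) and 0 were higher, and Nfkbia stood at 0.81. Their part in the Ccl3 result was not tested.

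Ccl4, which attracts lymphocytes and monocytes, was shared among more classes. NK cells held the highest level of any class with 50 or more cells, at 1027 CPM in BLM (914 to 1149) and 955 CPM in naive (875 to 1039), and the interval of the ratio included 0 (0.10 [−0.10, 0.31]). A Ccl4 UMI was seen in 48.2% and 50% of NK cells. NK cells also held Ccl3, at 385 and 279.96 CPM (0.46 [0.10, 0.82]). Yet NK cells supplied 15.5% of the Ccl4 UMIs in BLM and 48.1% in naive, where they were 137 of 4391 and 246 of 3808 cells. In BLM the largest share lay in IM (31.7%, against 5.69% in naive), at 135 and 83.3 CPM (0.70 [0.32, 1.09]). Ccl3 in IM stood at 135 and 91.3 CPM (0.56 [0.20, 0.94]). Both IM ratios changed sign without integration of the libraries (−0.60 for Ccl4 and −0.53 for Ccl3), and that of Ccl4 was 0.011 when doublets were kept. In IM cells without a Folr2 UMI, Ccl4 rested on 436 UMIs in BLM (136 CPM) and 3 in naive (6.97 CPM), whereas cells with one were at 132 and 184 CPM.

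Ccl4 in neutrophils had the same direction as Ccl3, at 153 CPM in BLM and 51.4 CPM in naive (1.57 [1.06, 2.12]). Of the 73 BLM neutrophils with a Ccl4 UMI 45 also had a Ccl3 UMI, and 8 of 19 did in naive, while 4.08% and 2.74% of neutrophils without Ccl3 had Ccl4. AM were higher in BLM for Ccl3 (32.4 against 12.96 CPM, 1.32 [0.94, 1.72]) and Ccl4 (28.5 against 5.65 CPM, 2.33 [1.8, 2.91]), levels far under those in NK cells. B cells had a Ccl3 ratio in the same direction, at 12.7 and 2.93 CPM (2.12 [0.71, 3.75]). The AM level of Ccl3 was 2.55 times that of B cells in BLM and 4.42 times in naive. The part of the B cell difference in the AM value was not tested.

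In classical monocytes Ccl3 stood at 174 and 16.6 CPM (3.39 [2.58, 4.31]), but 3 cells held 72.6% of the BLM UMIs, and the other BLM monocytes were at 48.7 CPM. The 8 IM markers summed to 1564 CPM in BLM and 663 CPM in naive classical monocytes, with Arg1 at 0 in the latter, and to 2756 CPM in the 3 top BLM cells for Ccl3 against 1535 CPM in the rest. In nonclassical monocytes it stood at 126 and 43.4 CPM (1.54 [0.96, 2.12]). Of 13 immediate early genes, 5 were 2-fold or more higher and 1 lower in BLM classical monocytes, and 4 were higher and 0 lower in nonclassical ones, and the part of these genes and of the IM markers in the Ccl3 values was not tested. In cDC1, Ccl4 stood at 308 CPM in BLM and 80.6 in naive (1.94 [1.45, 2.45]), and in cDC2 at 38.3 and 133 CPM (−1.80 [−2.62, −1.05]). Few cells carried these values as well, with 72.7% and 67.4% of the cDC1 UMIs and 55.6% and 56.0% of the cDC2 UMIs in 3 cells. The 8 IM markers summed to 3588 CPM in the 3 top cDC1 for Ccl4 in BLM and to 170.4 CPM in the other BLM cDC1, and for Ccl2 and Ccl9 the top cells were at 3798 and 3708 CPM. Over the whole cDC1 class these markers were at 431 CPM in BLM and 57.8 CPM in naive, where Arg1 was at 0. The 9 AM markers were at 3807 CPM in BLM, with Marco, Ear1, Krt79 and Cidec at 0, and at 627 CPM in naive. Their part in the cDC1 values of Ccl2, Ccl4 and Ccl9 was not tested.

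The highest levels of Ccl3 and Ccl4 per cell were found in a handful of cells with 3 or more markers of basophils or mast cells (4 in BLM and 9 in naive). After their values had been seen, these were split at 100 UMIs of Cpa3, which encodes the mast cell carboxypeptidase. The 9 cells below it (3 BLM and 6 naive) included all those with a UMI of the basophil protease gene Mcpt8. They held between 37 and 78 Ccl3 UMIs each in BLM and between 0 and 66 in naive, and between 21 and 118 and between 3 and 55 Ccl4 UMIs. Together these few cells carried 6.08% of all Ccl3 UMIs in BLM and 20.6% in naive, and 9.87% and 14.3% of Ccl4. None of them had a UMI of Ccl2 or Ccl7. The 4 cells at or above 100 Cpa3 UMIs (1 BLM and 3 naive) showed the reverse, with no Ccl3 or Ccl4 UMI in any cell, between 8 and 22 Ccl2 UMIs in each cell, and between 3 and 31 Ccl7 UMIs in each naive cell. Just outside the 3-marker rule, a BLM cell with 2 of the markers held 43 Ccl3 and 54 Ccl4 UMIs, and a naive cell with 2 markers and 167 Cpa3 UMIs held 40 Ccl2 UMIs and 0 of Ccl3. These counts describe single cells and support no comparison between the libraries.

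Ccl6, a CCR1 ligand made by mouse macrophages and neutrophils, was by far the most abundant of the genes, with 95143 UMIs in BLM and 57452 in naive. Its level in AM did not differ between the libraries beyond counting error, at 7009 CPM in BLM (6945 to 7073) and 6989 CPM in naive (6922 to 7056; 0.00 [−0.01, 0.02]), and 505 of 505 and 580 of 581 AM held a UMI. Nor did it differ beyond counting error in neutrophils, at 4130.1 and 4021 CPM (0.04 [−0.03, 0.10]). IM were higher in BLM, at 5871 against 3264 CPM (0.85 [0.79, 0.91]). Monocytes were so too, classical ones at 4331 against 2584 CPM (0.75 [0.66, 0.83]) and nonclassical ones at 2229 against 1354 CPM (0.72 [0.60, 0.84]). Each of these differences was under 2-fold. Leaving aside cycling cells, the order of levels was AM, IM, classical monocytes and neutrophils in BLM, where the intervals of the last pair overlapped, and AM, neutrophils, IM and classical monocytes in naive, so IM stood above neutrophils in BLM and below them in naive. AM supplied 48.6% of Ccl6 UMIs in BLM and 73.2% in naive, and IM 28.2% and 4.29%. The genes whose profile was most like that of Ccl6 were Tlr2 and Sirpa (Pearson r 0.962 and 0.951 over 29 sums).

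Ccl9, which also binds CCR1 and lies 9.2 kb from Ccl6, had a narrower profile, with neutrophils close to the level of B cells. Neutrophils were at 44.7 CPM in BLM and 26.4 CPM in naive, where B cells were at 28.4 and 17.6 CPM. IM led, at 2155 and 1474 CPM (0.55 [0.46, 0.64]; −0.49 without integration), followed by classical monocytes at 1706 and 1281 CPM (0.41 [0.29, 0.54]) in both libraries. AM had a larger ratio than IM, at 489 against 147 CPM (1.74 [1.63, 1.85]), and a Ccl9 UMI was found in 81.2% and 45.1% of AM (thinned 31.2% and 10.8%). The 3 top cells held 4.83% and 9.41% of the AM UMIs, so this value did not rest on single cells. Cycling cells nearest to AM gave a similar pair of values, 501 and 139 CPM (1.85 [1.58, 2.13]). cDC2 went the other way, at 406 against 620.2 CPM (−0.61 [−0.87, −0.36]), and in cDC1 1 BLM cell held 105 of 121 UMIs. IM supplied 62.0% of Ccl9 in BLM and 26.6% in naive.

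**Figure D4:**
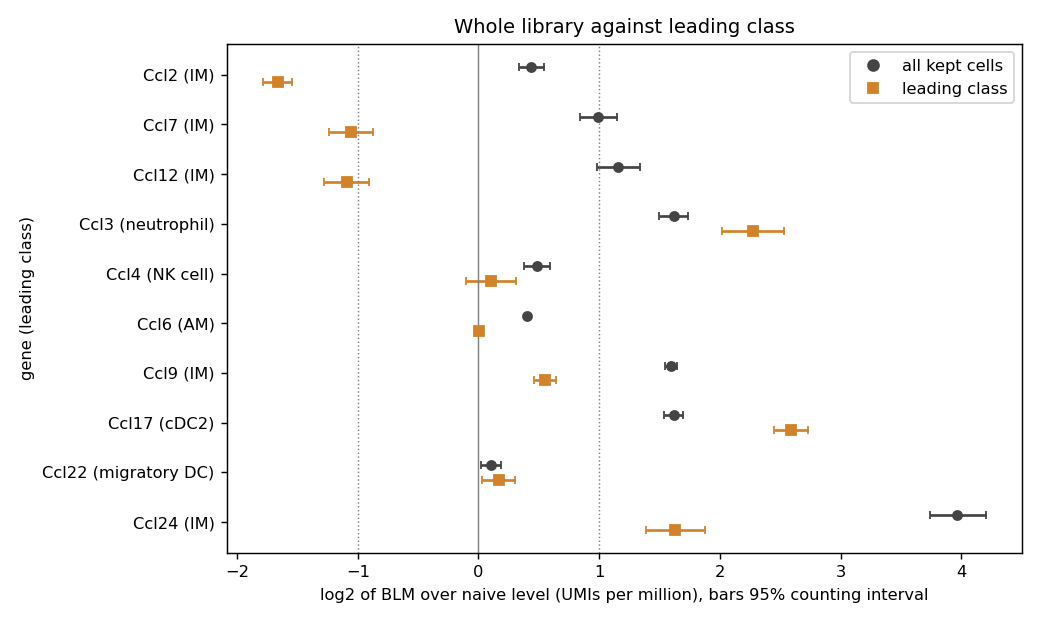
Log2 ratio of the BLM to the naive level for each gene over all kept cells (grey circles) and within its leading class (orange squares, class in parentheses), the one with most of its UMIs when both libraries are summed, both with 95% counting intervals and with dotted lines at 2-fold. All 10 circles lie right of 0, whereas the squares of Ccl2, Ccl7 and Ccl12 lie at −1.66, −1.05 and −1.09.

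The CCR4 ligands Ccl17 and Ccl22 were highest in dendritic cells. Of cDC1 and cDC2, whole-class levels differed between the libraries beyond counting error in cDC2 for Ccl17 and in cDC1 for Ccl22. Since both genes lie within the same stretch of chromosome 8, the bases upstream of their annotated starts are shown. The window ends before the first annotated start in RefSeq or GENCODE, which leaves 250 bases for Ccl17 and 156 for Ccl22. Capitals mark matches on either strand to TTCNNNNGAA, a pattern of STAT sites, or GGGNNNNNCC, a pattern of NF-kB sites (RefSeq promoters on GRCm38.p6, plus strand, at chr8:94810203-94810452 for Ccl17 and chr8:94745434-94745589 for Ccl22).
Ccl17: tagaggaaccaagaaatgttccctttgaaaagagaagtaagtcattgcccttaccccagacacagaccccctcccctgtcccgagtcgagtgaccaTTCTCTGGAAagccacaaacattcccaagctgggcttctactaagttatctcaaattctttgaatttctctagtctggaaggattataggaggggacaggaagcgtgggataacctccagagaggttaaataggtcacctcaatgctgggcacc
Ccl22: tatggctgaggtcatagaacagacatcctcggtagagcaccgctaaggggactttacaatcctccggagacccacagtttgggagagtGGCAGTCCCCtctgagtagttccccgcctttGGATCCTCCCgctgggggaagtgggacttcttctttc
The Ccl17 window held 1 match of the STAT pattern and the Ccl22 window 2 of the NF-kB pattern. No match to TGANTCA, a pattern of AP-1 sites, was in either, and the capitals do not overlap. Over the 250 bases upstream of the RefSeq starts of 27025 mouse genes, a longer window than that shown for Ccl22, 5.87% held the STAT pattern, 45.4% the NF-kB pattern and 6.87% the AP-1 pattern, and a match is a description of letters, not a binding site. Promoters of 6 of the 10 genes were matched, and of the other 4 matched genes (Ccl3, Ccl6, Ccl9 and Ccl12) only Ccl9 held any match, 1 each of the NF-kB and AP-1 patterns.

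In cDC2, Ccl17 was higher in BLM, at 4961 CPM (2332 UMIs, 4762 to 5166) against 825 CPM (520 UMIs, 755 to 899), a log2 ratio of 2.59 [2.45, 2.73]. A Ccl17 UMI was found in 43 of 76 BLM cells (56.6%, 44.7 to 67.9%) and 36 of 103 naive cells (35.0%, 25.8 to 45.0%), against 5.35% and 1.34% of B cells, and thinned shares were 47.8% and 20.1%. Thus both the share of cells and the amount were higher. In the same cells Ccl22 stood at 583 and 674 CPM, and the interval included 0 (−0.21 [−0.43, 0.01]). cDC1 showed the other combination, with Ccl17 at 882 and 969 CPM (−0.14 [−0.32, 0.05]) and Ccl22 at 90.5 CPM in BLM (42 UMIs) against 1495 CPM in naive (853 UMIs; −4.05 [−4.53, −3.60]). The cDC1 supplied 1.39% of all Ccl22 UMIs in BLM and 38.1% in naive. In BLM cDC1, 74.1% of the Ccl17 UMIs were held by 3 cells, and the other cells were at 241 CPM, against 665 CPM in naive cDC1 without their top 3. Among the 12 immediate early genes counted in cDC1, 6 were 2-fold or more lower in BLM, including Nfkbia (−2.02) and Jun (−2.54), and 0 were higher. Their part in the Ccl22 result was not tested.

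Migratory dendritic cells, led by Fscn1, Apol7c and Il12b, held the highest Ccl22 level in both libraries, at 5700.1 CPM over 69 cells in BLM and 5078 CPM over 16 cells in naive, fewer than the 50 required for a comparison. Their Ccl17 stood at 3648 and 3249.8 CPM. The log2 ratios were 0.17 [0.03, 0.30] for Ccl22 and 0.17 [−0.00, 0.34] for Ccl17, but these cells held 83.3% of all Ccl22 UMIs in BLM and 24.6% in naive. The whole-library Ccl22 levels of 142 and 132 CPM were therefore made up by different classes. Many cells with one gene of the pair had the other. In naive cDC2, 31 of 36 cells with Ccl17 also held Ccl22, and 25 of 43 did in BLM, while of BLM cells with Ccl22, 25 of 27 held Ccl17. In cDC1 the count was 32 of 38 in naive and 8 of 20 in BLM.

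Macrophages carried less of the CCR4 ligands. Ccl17 in IM stood at 204 CPM in BLM and 41.0 CPM in naive (2.32 [1.8, 2.88]), mainly in cells without a Folr2 UMI (269 and 65.0 CPM, against 52.6 and 9.22 CPM with one). Few cells carried these values, since 3 cells without Folr2 held 30.8% of the BLM and 89.3% of the naive UMIs there. With Folr2, 1 BLM cell held 44 of 72 UMIs. In AM, Ccl17 stood at 72.1 and 9.47 CPM (2.93 [2.53, 3.35]), which was 2.60 and 1.76 times the level of B cells in the same library. B cells had a ratio in the same direction, with 27.7 CPM in BLM and 5.38 CPM in naive (2.36 [1.36, 3.48]), and its part in the AM value was not tested. Ccl22 in AM (8.63 and 18.1 CPM) was close to that of B cells (6.74 and 14.7 CPM). Cycling cells nearest to AM had Ccl22 at 11.8 CPM in BLM and 205 CPM in naive (−4.11 [−4.88, −3.43]). Their Ccl17 went the other way, at 488 and 177 CPM (1.47 [1.22, 1.72]), above the levels of IM and AM in both libraries.

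**Figure D5:**
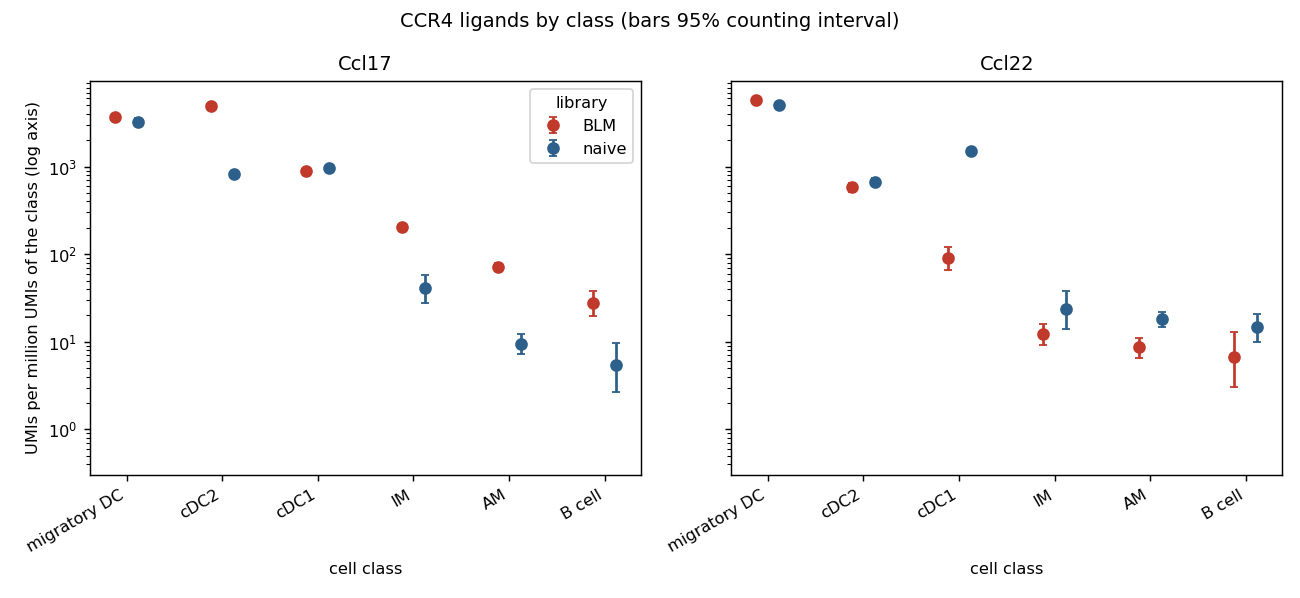
Level in CPM (log axis) of Ccl17 (left) and Ccl22 (right) in 6 classes for BLM (red) and naive (blue), with 95% counting intervals. For Ccl17 the libraries lie apart in cDC2 and close together in cDC1, and for Ccl22 the reverse holds. Without the 3 top cells of each library, Ccl17 in cDC1 was at 241 CPM in BLM and 665 CPM in naive.

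Ccl24, an eosinophil attractant made by alternatively activated macrophages, was almost restricted to IM, which held 87.9% of its UMIs in BLM (86.7 to 89.0%) and 92.5% in naive (87.2 to 96.0%). Its level there was 602 CPM in BLM (2747 UMIs) and 194 CPM in naive (147 UMIs), a log2 ratio of 1.63 [1.39, 1.88]. The ratio was 0.012 without integration and 2.09 with finer clusters. The share of IM cells with a UMI was not higher in BLM beyond counting error, at 26.6% (22.6 to 30.9%) and 31.7% (23.5 to 40.8%), or 15.6% and 13.7% after thinning. The cells that held Ccl24 differed between the libraries. In naive IM its level was 399.5 CPM in cells with a Folr2 UMI and 39.5 CPM in cells without, and 88.4% of its IM UMIs lay in the former. In BLM IM the order was turned, at 268 CPM with Folr2 and 744 CPM without, and 13.4% lay in the former. The higher BLM level thus lay in the cells without Folr2 (4.24 [3.55, 5.02]), where naive cells held only 17 UMIs, while cells with Folr2 had a lower level in BLM (−0.58 [−0.87, −0.28]). Of the 344 BLM cells without Folr2, 94 held a Ccl24 UMI. The top 3 of them held 24.5% of the 2380 UMIs, with 252 in 1 cell. Counted per cell, 30 of 38 naive cells with Ccl24 held a Ccl2 UMI and 43 of 122 BLM cells did.

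Ccl24 UMIs in the dendritic cells and classical monocytes of BLM came mostly from single cells. cDC1 held 115 UMIs in BLM and 0 in naive (at least 47.2-fold higher, taking 3 counts over the class as the limit for 0), of which 1 cell held 111. cDC2 held 49 and 0 UMIs, 41 of them in 1 cell, and classical monocytes 112 and 0 UMIs, with 61, 21 and 13 in 3 cells. In the 3 top cDC1 the summed level of the 8 IM markers was 3280.04 CPM against 172 CPM in the other BLM cDC1, and in the 3 top monocytes it was 2501 against 1538 CPM, whereas in the 3 top cDC2 it was 168 against 343 CPM. Their part in these Ccl24 counts was not tested.

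Counted by class, most of the 10 genes were higher in BLM in AM. There, 8 of the 10 were 2-fold or more higher in BLM and 1 (Ccl22) lower, where 6.24% and 10.1% of all genes counted were. Of those 8, only Ccl3, Ccl4, Ccl9 and Ccl17 exceeded the B cell interval in BLM, and Ccl2, Ccl7, Ccl12 and Ccl24 stood at 3.79 to 15.0 CPM. In IM, 2 of 10 were higher (background 6.58%) and 3 lower (10.5%), and in neutrophils 4 of 7 counted were higher (3.82%) and 0 lower (6.74%), with Ccl2 and Ccl17 near the level of B cells. Classical monocytes had 3 of 6 higher (3.84%) and 0 lower (5.08%), and nonclassical monocytes 1 of 5 higher (2.55%) and 0 lower (5.31%). In cDC1, 4 of 7 were higher (6.5%) and 1 lower (8.8%), and in cDC2, 2 of 8 were higher (5.17%) and 2 lower (7.88%). NK cells had 0 of 4 in either direction, beside 2.05% and 6.41%. Ccl24 in AM, classical monocytes, cDC1 and cDC2, Ccl2 in neutrophils and cDC1, and Ccl17 in neutrophils had fewer than 10 naive UMIs and reached the 20 UMIs needed to be counted through the BLM cells, and Ccl2 in cDC2 did so through the naive cells. Ccl7 and Ccl12 in AM (11 and 14 naive UMIs) and Ccl3 in classical monocytes (14 naive UMIs) also needed the BLM cells to be counted. Ccl4 in cDC2 (18 BLM UMIs) needed the naive cells.

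Of the 11 other CC ligands looked at, 7 had 20 or more UMIs, of which 3 were 2-fold or more higher (Ccl1, Ccl8 and Ccl11) and 1 lower (Ccl21a) over all cells, beside 5.15% and 6.75% of all genes counted. Ccl1 and Ccl11 had only 13 and 15 naive UMIs, so they too needed the BLM cells to be counted. Ccl8 stood at 825 CPM in BLM and 76.7 CPM in naive IM (3.43 [3.05, 3.83]). Ccl5, a chemokine of cytotoxic lymphocytes, was the most abundant of the 7 and stood at 18310.01 and 14470.02 CPM in NK cells (0.34 [0.29, 0.39]). Ccl1, which binds CCR8, came nearly all from group 2 innate lymphoid cells (ILC2), with 70 UMIs in 38 BLM cells, too few for a comparison, and 12 in 115 naive cells. Ccl11, an eosinophil attractant of fibroblasts, and Ccl21a, a CCR7 ligand of lymphatic endothelium, came from the stromal or endothelial cells (59 and 14 UMIs, and 19 and 72 UMIs). Ccl25 and Ccl27a were scarce, at 3.44 and 4.26 CPM and 0.755 and 0.947 CPM over all cells.

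Of 14 receptors looked at, 12 were counted, with 4 higher (Ccr3, Ccrl2, Ackr1 and Ackr3) and 0 lower over all cells, again beside 5.15% and 6.75% of all genes. Ccr3 and Ackr1 had only 4 and 1 naive UMIs, so they needed the BLM cells to be counted. Ccr2, the receptor of Ccl2, Ccl7 and Ccl12, stood at 1549.7 and 1576 CPM in classical monocytes (−0.02 [−0.15, 0.10]), at 1155 and 2261 CPM in ILC2 (−0.97 [−1.24, −0.71]), and at 843 and 1168 CPM in IM (−0.47 [−0.58, −0.36]). In AM it stood at 413 CPM in BLM and 26.1 CPM in naive (3.98 [3.75, 4.23]), beside the higher IM markers given above. Ccr1 was carried by neutrophils (1436 and 1104 CPM, 0.38 [0.26, 0.50]) and was higher in BLM classical monocytes (749 and 128 CPM, 2.55 [2.25, 2.87]). Ccr4, the receptor of Ccl17 and Ccl22, lay in T cells, at 37.2 CPM in BLM and 14.4 CPM in naive (1.37 [0.71, 2.07]). Ccr3 had 45 UMIs in BLM and 4 in naive, of which T cells held 23 and 0, and Ccr8 stood at 21.0 and 3.32 CPM in T cells (2.66 [1.43, 4.18]) and at 90.6 and 207 CPM in ILC2 (−1.19 [−2.23, −0.28]). For Ccr2 and Ccr8 alike, the ILC2 values rest on 38 BLM cells, fewer than the 50 required for a comparison. Ccr7, which guides cells to lymph nodes, was highest in migratory dendritic cells (3707 and 4247 CPM). The atypical receptor Ccrl2 was at 2475 and 2151 CPM in neutrophils and at 532 and 94.03 CPM in AM (2.50 [2.37, 2.63]). Of the scavenging receptors, Ackr1 had 40 UMIs in the stromal or endothelial cells of BLM and 0 in those of naive, Ackr2 had 16 and 9, and Ackr3 127 and 44. Ccr6 was found mainly in B cells (168 and 88.5 CPM). Ccr9 stood at 21.5 and 37.1 CPM in T cells and at 70.2 and 88.8 CPM in cDC2.

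The profiles of the other genes over the 29 class-by-library sums were most like those of the following genes, as a description of points that share libraries and depth. For Ccl7 these were Lyve1 and Gas6 (Pearson r 0.911 and 0.897), and for Ccl2 Plau and Stard8 (0.844 and 0.844). For Ccl9 they were Adora2b and Mcub (0.908 and 0.903), for Ccl17 Flrt3 and Dcstamp (0.914 and 0.910), and for Ccl22 Arhgap22 and Tbc1d4 (0.939 and 0.918). Ccl3 was nearest to Vegfa and Selenon (0.812 and 0.775), Ccl4 to 5830432E09Rik and Kcnip3 (0.772 and 0.721), and Ccl24 to Slc13a3 and B4galt6 (0.776 and 0.711).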

How the data were processed

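Living CD45+ lung cells of the BLM and naive groups were loaded as 1 library each, and the authors ran the BD Rhapsody WTA pipeline 1.8 on GRCm38 with GENCODE vM19 to obtain the deposited counts, which are UMI counts per gene and cell corrected for recursive substitution errors. Genes not listed in a table were taken as 0. Cells with 200 or more genes and 15% or less mitochondrial UMIs were kept, and the 3% with the highest scanpy (1.11.5) doublet scores per library were left out (135 BLM and 117 naive cells), since the automatic threshold marked only 8 and 61. Seurat 5.3.0 in R 4.3.3 integrated and clustered the cells (2000 variable genes without 60 chemokine and receptor genes, 30 dimensions, resolution 0.5), which gave 18 clusters. A cluster took the class whose markers had the highest mean score or, where these differed, most members among its 10 leading genes. Cells with UMIs of 3 or more of 6 basophil or mast cell markers were set apart.

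Sums, exact Poisson and Clopper-Pearson intervals and exact conditional intervals of ratios (95%) were computed with Python 3.11.15, numpy 2.4.6, scipy 1.17.1 and pandas 2.3.3 and drawn with matplotlib 3.10.9. They cover counting error only. A class with 0 UMIs was set to a floor of 3 counts. Genes with 20 or more UMIs over both libraries were counted as 2-fold or more higher or lower in BLM, with no test, since there was 1 library per group. Shares of cells were also taken after thinning to 1000 UMIs. The named genes were the 10 chemokines, the other CC ligands and receptors with 20 or more UMIs, the 2 genes most like each chemokine, the immediate early genes as a list, and leading genes of a class. The calls and intervals were tried on simulated Poisson counts of class sums, the model that the intervals assume. That simulation held no single cells, so it says nothing of UMIs concentrated in few cells. The chemokines, gene lists and alternatives were chosen with earlier results of these data known, and the splits by Folr2 and Cpa3 and the values without the 3 top cells were added after the values had been seen. Alternatives changed the doublet, gene and mitochondrial limits, the integration, the resolution, the genes used for clustering, the weight of each cell and the count minimum. One marker gene used to name clusters and one receptor gene are not reported here. Total UMIs per library set the precision given.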

Additional observations from a re-analysis of the deposited data

Results flagged for a closer look

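Some chemokines stood higher in BLM in one class and lower in another, and these differences between classes were not tested. Ccl2 had a log2 ratio of −3.61 in cDC2, from 3 BLM and 49 naive UMIs, and of 3.84 in cDC1, from 35 and 3 UMIs. Ccl12 had a ratio of −1.09 in IM and of 1.31 in AM, where its level did not exceed the B cell interval in either library. Ccl4 had a ratio of −1.80 in cDC2 and of 3.73 in the stromal or endothelial cells, where 3 cells held 93.4% of the BLM UMIs. That class had 61 Ccl4 UMIs in BLM, and 1 of its BLM cells held 43 Ccl3 UMIs. The BLM cell with 2 basophil or mast cell markers described above had the same Ccl3 count and 54 Ccl4 UMIs. Its part in the stromal or endothelial value was not tested.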

How the results depend on the processing

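No paired analysis was possible because each group was 1 library. Ratios are log2 of BLM over naive. Over all cells, keeping doublets gave 0.23 for Ccl2, 0.80 for Ccl7, 0.37 for Ccl6 and 1.5 for Ccl9, and a mitochondrial limit of 10% gave 0.38 for Ccl6. Giving each cell the same weight gave 0.015 for Ccl2, 0.40 for Ccl7, 0.58 for Ccl12, 2.02 for Ccl3, 0.37 for Ccl4, 0.45 for Ccl6, 1.17 for Ccl9, 1.37 for Ccl17 and 3.68 for Ccl24. In IM, leaving out the integration gave −3.28 for Ccl2, −2.71 for Ccl7, −2.75 for Ccl12 and 0.012 for Ccl24, and turned Ccl9 (−0.49), Ccl3 (−0.53) and Ccl4 (−0.60). Resolution 1 gave −1.16, −0.59, −0.62, 0.95 and 2.09 for Ccl2, Ccl7, Ccl12, Ccl9 and Ccl24. Keeping doublets gave −1.94 for Ccl2 and −1.26 for Ccl7, a minimum of 500 genes −1.81 for Ccl2 and 0.44 for Ccl9, and clustering with chemokines −1.91 for Ccl2. Equal weights gave 0.68 for Ccl9 and 1.89 for Ccl24, and leaving out the 3 top cells −0.80 for Ccl12 and 0.68 for Ccl9. Ccl6 in AM was 0.048 with doublets, 0.049 at 10% mitochondrial UMIs, −0.078 with equal weights and −0.016 without the 3 top cells. Ccl17 in cDC2 was 2.22 with doublets, 2.39 without integration, 2.37 at resolution 0.3, 2.36 with chemokines in the clustering, 2.17 with equal weights and 2.98 without the 3 top cells. Ccl22 in migratory dendritic cells was 0.31 without integration, −0.088 with equal weights and −0.032 without the 3 top cells. Of the counts of genes, those higher became 1 in IM and 2 in nonclassical monocytes without integration, 4 in the latter at resolution 0.3, 2 in the latter with a minimum of 1 UMI in each library, 2 in neutrophils at 50 UMIs, and 1 in cDC2 at 50 UMIs and with 1 UMI in each library. Those lower became 0 in AM with doublets and at resolution 1, 1 in neutrophils at 500 genes, 1 in nonclassical monocytes at resolution 0.3 and with equal weights, and 1 in classical monocytes and in NK cells with 1 UMI in each library. The cause was not tested. Classical monocytes could not be told apart at resolution 0.3 and AM had 0 BLM cells without integration, so neither has a value there. Depth limits the genes at 20 UMIs or fewer in a class, and 1 library per group leaves the spread between mice unknown.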
